A study of Rattus norvegicus with 26 samples.

Results

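The CDK inhibitors and D cyclins are 10 genes that set the brake and the accelerator of the G1 phase. They comprise the 4 INK4 inhibitors *Cdkn2b* (p15), *Cdkn2a* (p16 and p19Arf), *Cdkn2c* (p18) and *Cdkn2d* (p19), the 3 Cip/Kip inhibitors *Cdkn1a* (p21), *Cdkn1b* (p27) and *Cdkn1c* (p57), and the 3 D cyclins *Ccnd1*, *Ccnd2* and *Ccnd3*. They were measured in rat multipotent adult progenitor cells (rMAPCs) during smooth muscle differentiation, on rat Agilent arrays with 41012 different gene probes. Each gene was found by its name in the scanner files and was represented by 1 probe, selected on brightness as the one with the highest mean log2 level over the 26 arrays. All 10 genes had a probe, with 16 probes in all, and the brightest probes of all 10 were among the 24442 probes tested. The choice of probe used levels only.

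The lines Cl19 and 3c3 are 2 clones of rMAPCs from the bone marrow of female Fischer rats, Cl19 from a donor of 3 weeks and 3c3 from a donor at embryonic day 18, according to the labels. For differentiation, both were cultured in basal rMAPC medium with TGF-β and PDGF-BB and without serum. RNA was taken from undifferentiated cells on d0 and from this culture on d2, d4 and d6, with 3 arrays per line and day. The arrays held no culture without the cytokines. Changes from d0 therefore cannot separate the effect of the cytokines from that of the medium or of time. RNA of primary smooth muscle cells (SMCs), on 2 arrays, was the reference for the differentiated state. Its label reads rat aortic RNA from a commercial supplier, whereas the study's methods describe RNA of primary smooth muscle cells from another company. Each line is a single clone, and the study's methods call the replicates biological without naming cultures, so that p-values measure the spread between these samples.

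D cyclins bind CDK4 and CDK6, and the active complexes phosphorylate the retinoblastoma protein, which releases E2F factors and lets cells enter S phase. INK4 proteins bind CDK4 and CDK6 alone and keep the D cyclins off them. Cip/Kip proteins bind cyclin-CDK complexes, inhibit those of CDK2 above all, and can also assist the assembly of cyclin D complexes. TGF-β is known to induce *Cdkn2b* and *Cdkn1a* in epithelial cells, whereas PDGF is a mitogen that raises D cyclins in smooth muscle cells, which leave the cell cycle as they acquire the contractile state.

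Levels are the log2 of the scanner's background-corrected intensity after quantile normalization over all arrays. A probe counted as measured on an array where the scanner software flagged it as well above background. The share of gene features with this flag was 52.7% to 61.4% in Cl19, 53.7% to 57.1% on the first 2 slides of 3c3 and 43.6% to 44.5% in primary SMCs. On the slide with replicate 3 of 3c3 it was 43.2% to 51.8%, and the median negative control signal there was 1.77 to 5.30, against 0.986 to 1.24 on the other rMAPC arrays. A slide carried all 4 days of a single rMAPC replicate, so that changes over days lie within slides. The 2 lines and the primary SMCs were scanned on 3 separate days, and their level differences cannot be told apart from a difference between scan days. The array labelled Cl19 d2 replicate 1 lay closer to the 3c3 arrays of d2. Over the 10 genes, the root mean square distance to the 3c3 arrays of that day was 0.148 to 0.497 log2 units, whereas the distance to its own 2 replicates was 2.41 and 2.44. The label was followed here, and results that rest on Cl19 d2 are given with and without this array.

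The labels of the cells were checked with marker genes. *Pou5f1*, which encodes the rMAPC factor Oct4, went in Cl19 from a mean level of 10.3 on d0 to 1.1 on d6, where 1 of 3 arrays measured it, and in 3c3 from 11.5 to 7.4. The 5 rMAPC markers, *Pou5f1* with *Gata4*, *Gata6*, *Sox7* and *Sox17*, went from a mean level of 11.77 to 7.46 in Cl19 and from 12.14 to 10.37 in 3c3. *Tagln*, an early smooth muscle gene, went from 9.3 to 15.9 in Cl19 and from 8.8 to 14.8 in 3c3, and lay at 16.3 in primary SMCs. The 8 smooth muscle markers together went from 5.22 to 7.79 and from 5.43 to 7.70, and lay at 10.61 in primary SMCs. Of these, *Synpo2* went from 3.35 to 3.01 in Cl19. All 8 smooth muscle markers with a probe were measured on both primary SMC arrays, whereas *Myocd* stayed at a mean of 1.3 to 2.5 in the rMAPC groups. The 5 endothelial markers together went from 4.85 to 2.54 in Cl19 and from 4.19 to 3.94 in 3c3, and *Vwf* was measured on all of these arrays. The 4 fibroblast markers together went from a mean level of 4.81 to 8.58 in Cl19 and from 4.84 to 5.43 in 3c3, and lay at 10.4 in primary SMCs. Of these, *Pdgfra* went the other way, from 12.34 to 10.41 and from 12.25 to 10.48. *Col1a1* went from 6.00 to 13.26 and from 6.01 to 9.53, and *Dcn* and *Lum* were not measured in 3c3 on d0 or d6. Of the 4 blood markers, *Hbb* and *Itgam* were measured on no array of d0, d6 or primary SMCs, and *Cd68* on all of them. *Ptprc* lay at 5.11 in primary SMCs, on both arrays, and at 0.79 to 1.49 in the rMAPCs of d0 and d6. These arrays measured bulk RNA, in which fewer cells of a kind and less RNA per cell cannot be told apart, and the part of other cell types in the results was not tested.

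The probes of the 3 INK4 genes with the largest changes are shown because *Cdkn2b* and *Cdkn2a* are close relatives that lie side by side, and a probe could in principle read its neighbor's transcript. On rat assembly rn4, the probe of *Cdkn2b* lies at chr5:108941425-108941484, that of *Cdkn2a* at chr5:108910800-108910859 and that of *Cdkn2c* at chr5:131013102-131013161, all on the minus strand. The first 2 are 30565 bases apart. Capitals mark the longest run of bases that the probes of *Cdkn2b* and *Cdkn2a* share.
Cdkn2b: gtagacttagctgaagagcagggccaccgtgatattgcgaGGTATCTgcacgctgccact
Cdkn2a: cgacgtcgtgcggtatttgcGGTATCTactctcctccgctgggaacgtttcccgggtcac
Cdkn2c: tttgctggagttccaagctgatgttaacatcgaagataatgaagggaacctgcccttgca
This run was 7 of 60 bases long, and the best ungapped alignment of the 2 probes had 21 identical bases over 59. The probe of *Cdkn2c* shared a longest run of 6 bases with either. These values compare probes with each other and not with the neighbor's transcript. Whether a probe reads that transcript was therefore not tested. Whether the probe of *Cdkn2a* separates the p16 and the p19Arf transcripts was not tested.

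The promoters of *Cdkn2b* and *Cdkn2a* are shown because both genes rose steeply in both lines. The sequences are the 250 bases before the start of the gene in RefSeq's table for assembly GRCr8, at chr5:109134856-109135105 for *Cdkn2b* and chr5:109107957-109108206 for *Cdkn2a*, on the minus strand. Capitals mark matches to the GC box GGGCGG, a motif of Sp1 factors, on either strand.
Cdkn2b: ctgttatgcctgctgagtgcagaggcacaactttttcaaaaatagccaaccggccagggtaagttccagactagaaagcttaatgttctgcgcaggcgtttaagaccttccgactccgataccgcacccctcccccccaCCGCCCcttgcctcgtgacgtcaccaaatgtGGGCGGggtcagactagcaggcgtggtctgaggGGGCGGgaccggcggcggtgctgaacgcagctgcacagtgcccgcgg
Cdkn2a: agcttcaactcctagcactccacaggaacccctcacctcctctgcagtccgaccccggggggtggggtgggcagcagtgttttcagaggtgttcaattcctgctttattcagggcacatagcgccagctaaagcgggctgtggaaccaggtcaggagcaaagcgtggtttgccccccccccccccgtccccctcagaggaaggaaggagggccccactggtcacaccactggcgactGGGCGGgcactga
The table held 7 of the 10 genes among 33469 promoters. *Cdkn2b* had 3 GC boxes in this window, *Cdkn2a* 1, *Cdkn2c* 1, *Cdkn2d* 5, *Cdkn1b* 1, *Ccnd3* 2 and *Cdkn1a* 0. A GC box occurred in 30.5% of all promoters over the same 250 bases. The windows of these 7 genes held 58.8% to 68.8% G and C bases, beside a median of 51.2% over all promoters. The counts were not adjusted for this difference in composition. The motif CAGAC, the core of a SMAD-binding element, was searched on both strands. It occurred 3 times in *Cdkn2b*, once each in *Cdkn2c*, *Cdkn2d*, *Cdkn1b* and *Ccnd3*, and not in *Cdkn2a* or *Cdkn1a*, so that 5 of the 7 promoters held it, beside 42.9% of all promoters. No GC box overlapped a CAGAC match in these 7 promoters. The matches describe letters in this window and not binding. For *Cdkn2a* a single start was searched, and whether it serves the p16 or the p19Arf transcript was not determined.

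The inhibitors did not move as 1 group in either line. On d6 compared with d0, 5 of the 10 genes were higher in Cl19 (*Cdkn2b*, *Cdkn2a*, *Cdkn1a*, *Cdkn1b* and *Ccnd2*) and 3 were lower (*Cdkn2c*, *Cdkn1c* and *Ccnd1*). In 3c3, 7 genes were higher (*Cdkn2b*, *Cdkn2a*, *Cdkn2d*, *Cdkn1a*, *Cdkn1b*, *Ccnd1* and *Ccnd2*), and only *Cdkn2c* of the 10 was lower. A gene was called at an adjusted p below 0.05, by limma with Benjamini-Hochberg adjustment over all tested probes. The shares of all tested probes called were 22.0% higher and 30.3% lower for Cl19, and 19.7% higher and 28.6% lower for 3c3. The median change of the 10 genes was 0.54 in Cl19 and 1.01 in 3c3 on the log2 scale, beside -0.20 and -0.21 over all tested probes. Over the whole course, 9 of the 10 genes passed limma's F-test in Cl19 and 9 in 3c3, all but *Ccnd3* in both, against 54.3% and 50% of all tested probes. With the slide as a block, *Ccnd3* also passed it in 3c3 (adjusted p = 0.0154). Without the 3c3 slide with the higher background, 6 of the 10 genes passed it in 3c3.

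**Figure D1:**
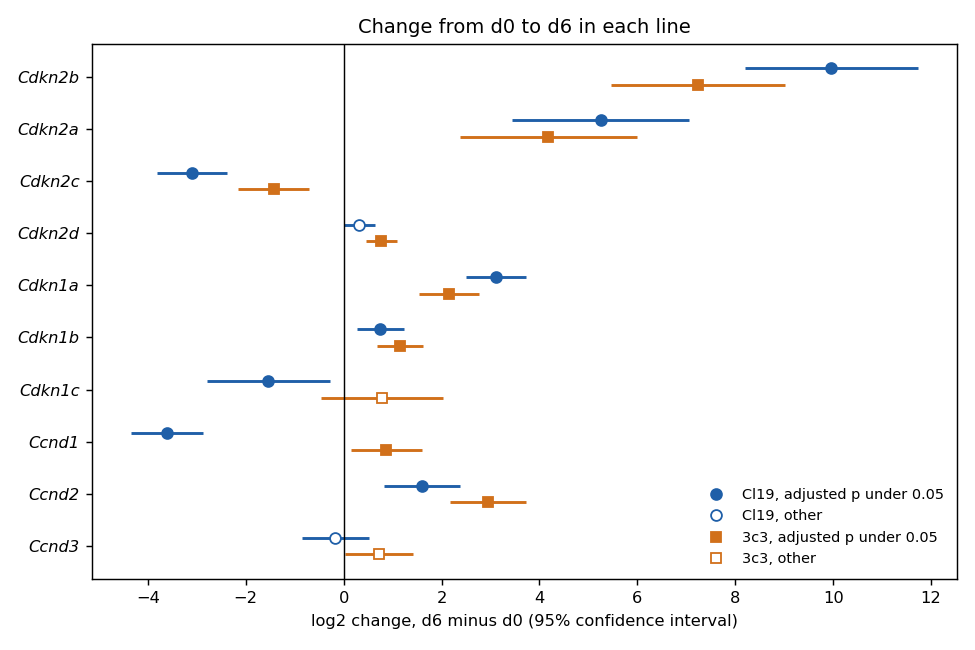
Change from d0 to d6 of each gene (x axis, log2 units; 0 is no change) in Cl19 (circles) and 3c3 (squares), from limma's fit; lines are 95% confidence intervals, and filled symbols have an adjusted p below 0.05. *Cdkn2b* rose by 9.96 in Cl19 and 7.24 in 3c3, and *Ccnd1* went down by a change of -3.61 in Cl19 and up by 0.87 in 3c3.

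*Cdkn2b*, the INK4 inhibitor that TGF-β is best known to induce, had the largest rise of the 10 genes in both lines. In Cl19, its 3 arrays lay at 3.16, 3.51 and 3.85 on d0 and at 13.09, 13.59 and 13.73 on d6. In 3c3, they lay at 2.67, 3.18 and 3.4 on d0 and at 9.69, 10.07 and 11.22 on d6. All d6 arrays of a line lay far above its d0 arrays, and the probe was measured on all 26 arrays. The change was 9.96 log2 units in Cl19 (SE 0.85, adjusted p = 1.11e-08) and 7.24 in 3c3 (SE 0.85, adjusted p = 1.15e-06), which is 998-fold and 151-fold. Within slides it was 10.08, 10.57 and 9.24 in Cl19 and 7.82, 7.02 and 6.89 in 3c3. The size depends on how dim signals are treated, since a normexp background correction gave 7.30 in Cl19 and 4.27 in 3c3.

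The course of *Cdkn2b* between these days was followed array by array. On d2, the Cl19 arrays lay at 5.29, 9.97 and 10.37, where the lowest is the array that resembled 3c3, and the 3c3 arrays lay at 4.78, 5.32 and 6.01. On d4, Cl19 lay at 11.89 to 13.00 and 3c3 at 6.50 to 7.92. The mean level ran, from low to high, through 3c3 d0, Cl19 d0, 3c3 d2, 3c3 d4, Cl19 d2, 3c3 d6, Cl19 d4 and Cl19 d6. The arrays of the d0 groups overlapped, and the wide range of Cl19 d2 overlapped 3c3 d2, d4 and d6. The Cl19 arrays of d6 lay above those of d4, by no more than 0.09 at their closest within a slide. The difference between the lines in the change from d0 to d2 was 2.75 and did not pass (adjusted p = 0.594). Without the array that resembled 3c3 it was 4.38 and passed (adjusted p = 0.000441).

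*Cdkn2a*, the neighbor of *Cdkn2b* and the source of p16 and p19Arf, rose from a higher level. In Cl19 its arrays lay at 8.34, 8.63 and 8.98 on d0 and at 13.67, 13.78 and 14.24 on d6. In 3c3 they lay at 6.50, 6.72 and 6.79 on d0 and at 10.05, 10.81 and 11.70 on d6. The groups did not overlap in either line. The change was 5.25 in Cl19 (SE 0.86, adjusted p = 3.86e-05) and 4.18 in 3c3 (SE 0.86, adjusted p = 0.000505). In 3c3 the level on d2, at 6.34, 6.75 and 7.37, overlapped that of d0. In Cl19 the d2 arrays lay at 6.81, 11.60 and 11.72. Without the lowest of them, which is again the array that resembled 3c3, the change from d0 to d2 was 3.01 (adjusted p = 0.000219), and with it 1.40 (adjusted p = 0.282).

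*Cdkn2c*, the INK4 inhibitor p18, fell in both lines. In Cl19 its arrays lay at 5.76, 5.79 and 6.23 on d0 and at 2.00, 2.88 and 3.61 on d6, a change of -3.10 (SE 0.35, adjusted p = 3.64e-07). In 3c3 they lay at 5.12, 5.20 and 5.23 on d0 and at 3.20, 3.80 and 4.26 on d6, where 2 of 3 arrays were measured. The change in 3c3 was -1.43 (SE 0.35, adjusted p = 0.002), or at least 2.44-fold lower when the dim array is set to the lowest signal well above background. In Cl19 most of the fall had occurred by d4, with arrays at 2.26, 2.97 and 3.48, whereas the 3c3 arrays of d4, at 4.61, 5.0 and 5.45, still overlapped d0. The normexp correction gave a change of -0.83 in Cl19 and -0.39 in 3c3, both past the threshold. *Cdkn2d*, the INK4 inhibitor p19, moved least of the 4. In 3c3 it lay at 8.96 to 9.05 on d0 and 9.55 to 10.09 on d6, a rise of 0.77 (SE 0.15, adjusted p = 0.000343). In Cl19 it lay at 9.01 to 9.11 on d0, 9.76 to 10.31 on d4 and 9.28 to 9.53 on d6. Its change on d4 was 0.95 (adjusted p = 3.86e-05) and on d6 0.32, which did not pass (adjusted p = 0.0818) but did with the slide as a block (adjusted p = 0.0414).

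**Figure D2:**
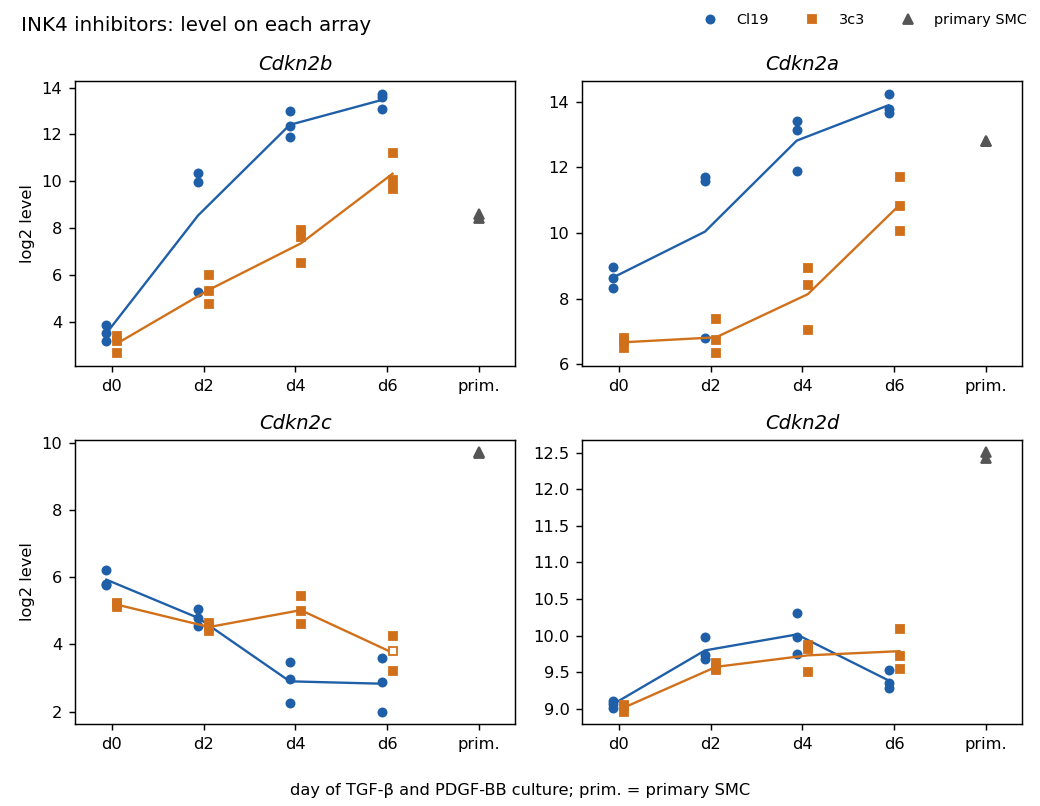
Level of the 4 INK4 genes (y axis, log2) on each array by day (x axis) in Cl19 (circles), 3c3 (squares) and primary SMCs (triangles); lines join group means, and open symbols are arrays on which the probe was not well above background. *Cdkn2b* reaches 13.09 to 13.73 in Cl19 on d6, above the 8.42 and 8.61 of primary SMCs, and 1 Cl19 array of d2 lies with the 3c3 arrays for *Cdkn2b* and *Cdkn2a*.

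Among the Cip/Kip inhibitors, *Cdkn1a*, which encodes p21, rose in both lines from nearly the same level. In Cl19 its arrays lay at 10.42, 10.49 and 10.81 on d0 and at 13.47, 13.59 and 14.02 on d6. In 3c3 they lay at 10.34, 10.49 and 10.72 on d0 and at 12.35, 12.56 and 13.10 on d6. The groups did not overlap, and the change was 3.12 in Cl19 (SE 0.29, adjusted p = 4.08e-08) and 2.15 in 3c3 (SE 0.29, adjusted p = 6.95e-06). It was already higher on d2, with a rise of 1.26 for Cl19 (adjusted p = 0.00366) and of 1.38 for 3c3 (adjusted p = 0.00221). A second, dim probe of *Cdkn1a* was measured on 5 of 26 arrays, and the mean of both probes gave 1.21 in 3c3.

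*Cdkn1b*, which encodes p27 and is controlled largely by protein degradation, showed a small rise. In Cl19 it lay at 9.42 to 9.60 on d0 and 10.01 to 10.60 on d6. In 3c3 it lay at 9.34 to 9.56 and then 10.22 to 10.94. The change was 0.75 in Cl19 (SE 0.23, adjusted p = 0.00885) and 1.15 in 3c3 (SE 0.23, adjusted p = 0.000322). A second probe, measured on 17 of 26 arrays, changed by 0.01 and 0.68, and the mean of the 2 probes passed the threshold in neither line (adjusted p = 0.601 and 0.189).

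*Cdkn1c*, the imprinted gene of p57, set the lines apart. On d0 its arrays lay at 14.37, 14.52 and 14.78 in Cl19 and at 9.03, 9.28 and 9.44 in 3c3. In Cl19 it dropped on d2, to 8.01, 10.98 and 11.47, and came back to 12.22, 13.13 and 13.71 on d6. In 3c3 it lay at 7.58, 7.86 and 8.27 on d2 and at 9.51, 10.23 and 10.35 on d6. The d2 arrays lay below the d0 arrays in both lines. The change from d0 to d2 was -4.40 in Cl19 (SE 0.60, adjusted p = 2.28e-05), or -3.33 without the array that resembled 3c3 (adjusted p = 4.27e-06), and -1.35 in 3c3, which did not pass (adjusted p = 0.133) but did without that array (adjusted p = 0.0108). On d6 Cl19 was still below d0, by a change of -1.54 (SE 0.60, adjusted p = 0.0373), and 3c3 differed by 0.78 (95% interval -0.47 to 2.03, adjusted p = 0.302). The call on d6 in Cl19 was lost in 5 of the fits that left out 1 array, and without replicate 3 of d6 the change was -1.14 (adjusted p = 0.162). For all 4 probes of *Cdkn1c*, the change in Cl19 ranged from -1.59 to -1.46, and that in 3c3 from 0.56 to 0.90.

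**Figure D3:**
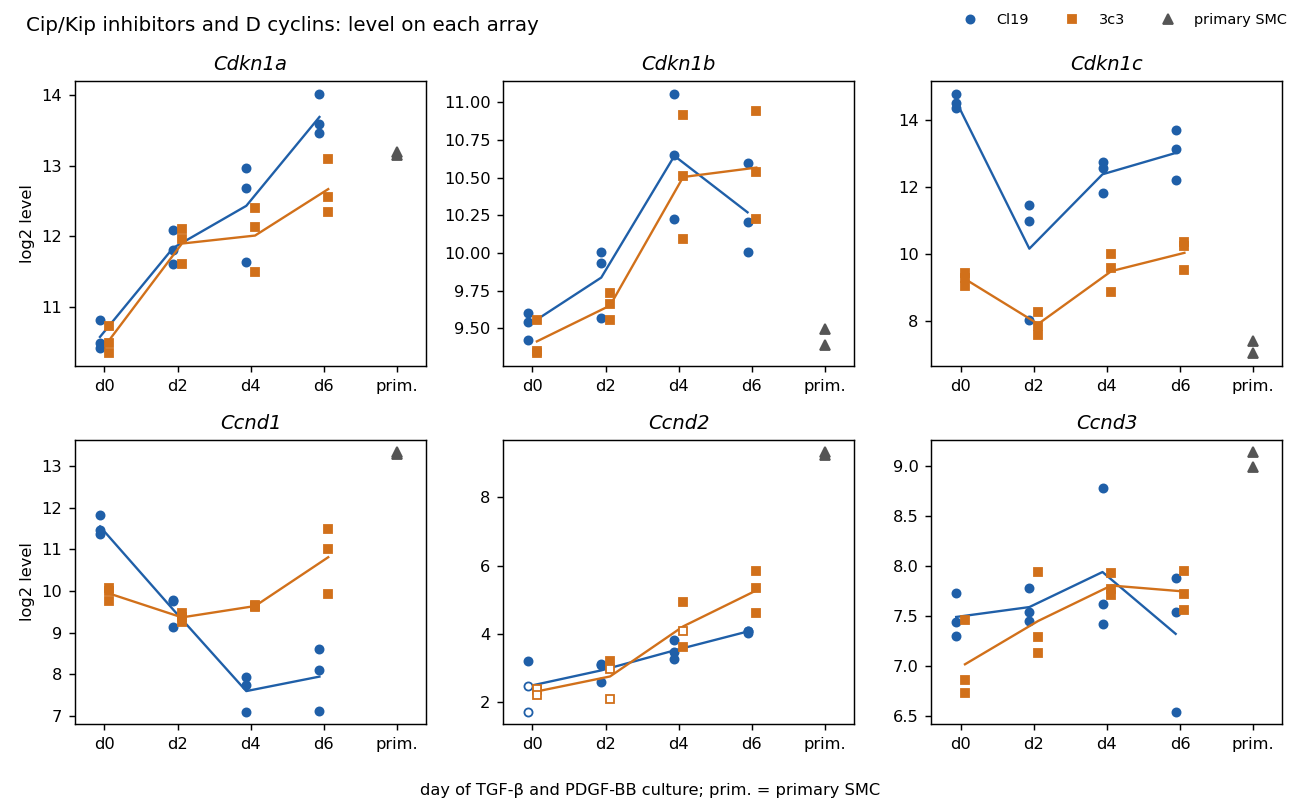
Level of the 3 Cip/Kip inhibitors and the 3 D cyclins (y axis, log2, with a scale of its own per gene) on each array by day (x axis) in Cl19 (circles), 3c3 (squares) and primary SMCs (triangles); lines join group means, and open symbols are arrays on which the probe was not well above background. *Cdkn1c* starts at 14.37 to 14.78 in Cl19 and 9.03 to 9.44 in 3c3. The arrays of *Ccnd1* lie higher in Cl19 than in 3c3 on d0, overlap on d2 and lie lower in Cl19 on d4 and d6.

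Of the D cyclins, *Ccnd1*, a classic target of mitogen signaling, fell in Cl19, whereas in 3c3 it ended slightly higher with a marginal call. In Cl19 its arrays lay at 11.37, 11.46 and 11.83 on d0, 9.13 to 9.78 on d2, 7.11 to 7.93 on d4 and 7.12, 8.11 and 8.61 on d6. In 3c3 they lay at 9.75, 10.01 and 10.07 on d0, 9.25 to 9.47 on d2, 9.62 to 9.66 on d4 and 9.93, 11.02 and 11.50 on d6. The d6 arrays lay below all d0 arrays in Cl19 and overlapped them in 3c3. By d6, the level in Cl19 had changed by -3.61 (SE 0.35, adjusted p = 5.63e-08), with -4.25, -2.85 and -3.73 within slides. In 3c3 it was 0.87 (SE 0.35, adjusted p = 0.0457), with -0.14, 1.74 and 1.00 within slides. The call in 3c3 was lost in 23 of 37 alternatives. Among these were the slide as a block (adjusted p = 0.0563) and the fit without replicate 2 of d6, where the change was 0.53 (adjusted p = 0.249). The second probe of *Ccnd1* gave -3.71 for Cl19 (adjusted p = 2.69e-07) and 0.50 for 3c3, which did not pass (adjusted p = 0.331).

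*Ccnd2* rose in both lines from the edge of detection. On d0 it was measured on 1 of 3 arrays in Cl19 and on 0 of 3 in 3c3, with levels of 1.74 to 3.21 and 2.22 to 2.39. On d6 it was measured on all arrays, at 4.03, 4.09 and 4.10 in Cl19 and at 4.63, 5.36 and 5.84 in 3c3. The rise was at least 2.54-fold in Cl19 (adjusted p = 0.00117) and at least 6.10-fold in 3c3 (adjusted p = 2.7e-06), the mean of d6 being set against the higher of each d0 array's own value and its lowest signal well above background. With the normexp correction, the call was lost in Cl19 (change 0.23, adjusted p = 0.0613). *Ccnd3* lay in Cl19 at 7.31 to 7.74 on d0 and 6.55 to 7.88 on d6, which overlap, and in 3c3 at 6.74 to 7.46 and then 7.57 to 7.95. Its change was -0.17 in Cl19 (95% interval -0.86 to 0.52, adjusted p = 0.701) and turned to 0.17 in the authors' log2 table. In 3c3 the change was 0.73, with an adjusted p of 0.0765, or 0.00837 with the slide as a block. The scanner files place the 55 aligned bases of its probe on chromosome 8 of rn4, whereas RefSeq has the gene on chromosome 9 of GRCr8, and this difference was not resolved.

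The calls were also counted per 2-day step. In Cl19, 6 of the 10 genes changed from d0 to d2, 6 from d2 to d4 and 2 from d4 to d6, beside 22.6%, 20.6% and 6.95% of all tested probes. In 3c3, 2 changed from d0 to d2, 2 from d2 to d4 and 4 from d4 to d6, beside 19.1%, 8.71% and 10.5%. With the slide as a block, the 3c3 counts were 3, 2 and 5, and without the Cl19 array that resembled 3c3, which widened the spread of *Cdkn2b* and *Cdkn1c*, they were 4, 4 and 4. In the first step of 3c3, the 3 slides had the same sign for *Cdkn2b* (2.60, 2.11 and 2.14), *Cdkn1c* (-1.17, -1.69 and -1.17), *Cdkn2c* (-0.72, -0.49 and -0.79) and *Ccnd1* (-0.68, -0.50 and -0.55). The same held for *Cdkn1b* (0.39, 0.22 and 0.11) and *Ccnd3* (0.27, 0.48 and 0.55). None of these genes was called in the fit without the block. The share of all tested probes with the same sign on the 3 slides was not determined. The step from d0 to d2 differed between the lines for 0 of the 10 genes by limma, beside 0.323% of all tested probes, and for 3 at an unadjusted p below 0.05. Without the Cl19 array it differed for 3, *Cdkn2b*, *Cdkn2a* (adjusted p = 0.0242) and *Cdkn1c* (adjusted p = 0.0464). The last step in 3c3 held rises of *Cdkn2b* by 2.98 (adjusted p = 0.0303), *Cdkn2a* by 2.72 (adjusted p = 0.0492) and *Ccnd1* by 1.17 (adjusted p = 0.0362), and a change of *Cdkn2c* by -1.27 (adjusted p = 0.0242), with 2 of 3 arrays of d6 measured. The last step in Cl19 held a rise of *Cdkn1a* by 1.26 (adjusted p = 0.0124) and a change of *Cdkn2d* by -0.63 (adjusted p = 0.0156). Leaving out the 3c3 slide with the higher background left 1 called step in 3c3 in place of 8.

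Some early steps in Cl19 rest on the d2 array that resembled 3c3. Within slides, *Cdkn2b* changed from d0 to d2 by 1.77, 7.21 and 6.12, the first being the slide of that array. From d2 to d4 it changed by 6.60, 1.97 and 3.03. Without the array, the step from d0 to d2 was 6.66 in place of 5.03 and the step from d2 to d4 2.24 in place of 3.87, all past the threshold. The calls from d2 to d4 of *Cdkn2a*, *Cdkn1b* and *Cdkn1c* were lost without it (adjusted p = 0.16, 0.0895 and 0.0672), as was that of *Cdkn2c* from d0 to d2 (adjusted p = 0.0671). *Ccnd1* fell in each of the first 2 steps on every Cl19 slide, with changes of -2.71 to -1.60 and of -2.67 to -1.37.

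**Figure D4:**
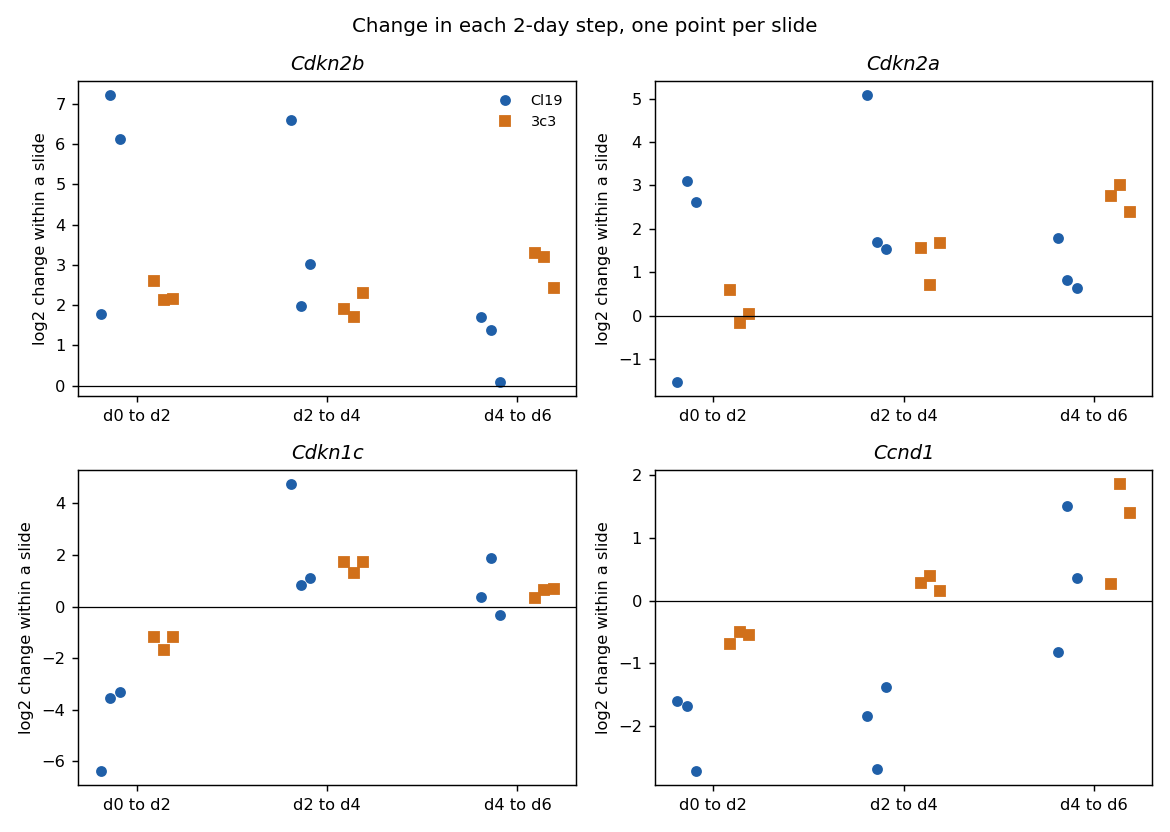
Change in level of *Cdkn2b*, *Cdkn2a*, *Cdkn1c* and *Ccnd1* (y axis, log2 units) over each 2-day step (x axis), 1 point per slide, in Cl19 (circles) and 3c3 (squares). The first Cl19 point of the first 2 steps comes from the slide whose d2 array resembled 3c3; for *Cdkn2b* it is 1.77 and then 6.60, where the other slides have 6.12 to 7.21 and then 1.97 to 3.03.

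Between the lines, the d6 change itself differed for 2 of the 10 genes, *Ccnd1* and *Cdkn2c*, by limma's interaction contrast, beside 17.4% of all tested probes. For *Ccnd1* the change in Cl19 minus that in 3c3 was -4.48 (SE 0.49, adjusted p = 3.4e-06), and it stayed past the threshold in every alternative. For *Cdkn2c* it was -1.67 (SE 0.49, adjusted p = 0.0212), with 2 of 3 arrays of 3c3 d6 measured. That call was lost without the slide with the higher background (adjusted p = 0.102), without replicate 3 of Cl19 d0 (0.059), replicate 2 of Cl19 d6 (0.0621) or replicate 1 of 3c3 d6 (0.056). For *Cdkn2b* the difference was 2.72 (95% interval 0.22 to 5.23, adjusted p = 0.14) and for *Cdkn1c* it was -2.32 (95% interval -4.09 to -0.55, adjusted p = 0.0669). Both passed without the d2 array that resembled 3c3 (adjusted p = 0.00254 and 0.00241), since the fit shares 1 estimate of the spread and that array widened it. Both also passed with that array kept and the normexp correction (adjusted p = 0.0196 and 0.0441). In all, *Cdkn2b* passed in 2 of 36 alternatives and *Cdkn1c* in 7 of 36, among them 75th percentile scaling (adjusted p = 0.0374). With the slide as a block, *Ccnd2* and *Ccnd3* passed as well (adjusted p = 0.0401 and 0.0405).

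On d0, 2 of the 10 genes differed between the lines, beside 3.07% of all tested probes. *Cdkn1c* was higher in Cl19 by 5.31 (SE 0.60, adjusted p = 5.52e-05), or 39.6-fold. *Ccnd1* was higher in Cl19 by 1.61 (SE 0.35, adjusted p = 0.0114), a call that was lost without replicate 3 of Cl19 d0 (adjusted p = 0.0727), replicate 2 of 3c3 d0 (0.0582) or the slide with the higher background (0.0842). *Cdkn2a* lay at 8.34 to 8.98 in Cl19 and 6.50 to 6.79 in 3c3, a difference of 1.98 that did not pass (adjusted p = 0.373). The estimate of its spread includes Cl19 d2, where the standard deviation was 2.80, or 0.08 without the array that resembled 3c3. Without that array, 3 of the 10 genes were called on d0. *Cdkn2b*, *Cdkn2d*, *Cdkn1a*, *Cdkn1b* and *Ccnd2* differed by 0.05 to 0.42 on d0.

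Set against primary SMCs, both lines had more *Cdkn1c* and *Cdkn1b* and less *Cdkn2c*, *Cdkn2d* and *Ccnd2* on d6. The lower levels held also in the authors' table. In that table most tested probes were higher in the rMAPCs, so that a higher level there says little. On d6, 8 of the 10 genes differed from primary SMCs in Cl19 and 7 in 3c3, beside 71.4% and 71.5% of all tested probes. *Cdkn1c* was higher in the rMAPCs, with a difference of 5.81 for Cl19 (adjusted p = 2.12e-07) and 2.82 for 3c3 (adjusted p = 0.000909), above primary SMC arrays at 7.03 and 7.39. *Cdkn2b* lay at 8.42 and 8.61 in primary SMCs, and was higher by 4.96 in Cl19 (adjusted p = 0.000111). In 3c3 it differed by 1.81 (adjusted p = 0.0931), or by 4.13 in the authors' table (adjusted p = 0.00075). The 3c3 difference of *Cdkn2b* also passed with the normexp correction, at 1.63 (adjusted p = 0.0466). Without the Cl19 d2 array that resembled 3c3 it stayed at 1.81 and passed (adjusted p = 0.00203). *Cdkn2a* differed by 1.1 in Cl19 (adjusted p = 0.317), or 2.86 in the authors' table (adjusted p = 0.0125). In 3c3 it differed by -1.94 (adjusted p = 0.0775), or -2.40 with 75th percentile scaling (adjusted p = 0.0295). The 3c3 difference of *Cdkn2a* also passed with the normexp correction, at -1.90 (adjusted p = 0.0479). Without the same Cl19 d2 array it stayed at -1.94 and passed (adjusted p = 0.00242). *Cdkn1b* was higher by 0.83 in Cl19 and 1.12 in 3c3. With the mean of its probes, the difference in Cl19 was 0.88 and did not pass (adjusted p = 0.214).

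Among the genes lower than in primary SMCs, *Cdkn2c* lay at 9.68 and 9.71 there, with a difference of -6.87 in Cl19 and -5.95 in 3c3. *Ccnd2* lay at 9.24 and 9.31, with differences of -5.20 and -4.00, or -2.67 and -1.61 in the authors' table. *Ccnd1* lay at 13.30 and 13.33, with differences of -5.37 and -2.50. In the authors' table the latter was -0.80 and did not pass (adjusted p = 0.0733). *Cdkn2d* was also lower, by differences of -3.07 and -2.67, or -1.13 and -0.76 in that table. *Ccnd3* was lower by quantile-normalized levels, with differences of -1.74 and -1.32, but turned to 0.71 (adjusted p = 0.168) and 1.05 (adjusted p = 0.0463) in the authors' log2 table. *Cdkn1a*, at 13.16 and 13.19 in primary SMCs, differed by 0.52 in Cl19 and -0.50 in 3c3, and neither passed. In the authors' table *Cdkn1a* passed in both, at 2.22 (adjusted p = 3.71e-06) and 1.19 (adjusted p = 0.00279). With 75th percentile scaling it was -0.15 in Cl19 (adjusted p = 0.715) and -1.11 in 3c3 (adjusted p = 0.00839). The primary SMC arrays were dimmer, with a log2 75th percentile of 5.36 and 5.47 against 7.13 to 8.0 on rMAPC arrays. Without normalization the median difference of all tested probes was 2.17 in Cl19 and 2.09 in 3c3, in place of 0.13 and 0.13, and the split of calls moved from 9431 higher and 8010 lower to 18111 and 1640 in Cl19.

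Genes of S phase and mitosis fell in both lines, and a link to the inhibitors was not tested. Of 24 tested, 22 were lower on d6 in Cl19 and 22 in 3c3, and 0 were higher in either. Of all tested probes, 30.3% were lower and 22.0% higher in Cl19, and 28.6% and 19.7% in 3c3. The median change of the genes of S phase and mitosis was -1.60 and -1.57, beside -0.20 and -0.21 for all tested probes. *Rrm2*, a subunit of ribonucleotide reductase, changed by -4.38 in Cl19 and -2.58 in 3c3. *Cdc6*, which licenses replication origins, changed by -2.38 and -1.52, and the mitotic kinase gene *Aurkb* by -2.21 and -1.68. Of 10 tested kinases and cyclins of G1 and S, 6 were lower and 1 higher in Cl19, and 3c3 had 6 lower, beside the same shares of all tested probes. Their medians were -0.83 and -0.90. *Ccna2* changed by -2.74 and -2.18, *Ccne1* by -1.63 and -2.57, *Ccne2* by -2.55 and -1.94, and *Ccnh*, the cyclin of the CDK-activating kinase, by -1.59 and -1.34. Of the kinase partners of the D cyclins, *Cdk4* changed by 0.38 in Cl19 (adjusted p = 0.0871) and by 0.00 in 3c3 (adjusted p = 0.994). *Cdk6*, one of the 6 in 3c3, was not well above background on any 3c3 array of d0 or d6, so that no change is given. *Cdk2* fell in Cl19, with a change of -0.88 (adjusted p = 0.000221), and differed by 0.05 in 3c3 (adjusted p = 0.834).

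Of 9 tested genes of the RB and E2F families, Cl19 had 4 lower and 1 higher, and 3c3 had 5 lower and 1 higher. Their median changes were -0.60 and -0.61, beside -0.20 and -0.21 for all tested probes, of which 30.3% and 28.6% were lower. *E2f8* and *E2f3* fell in both, with changes of -2.51 and -1.62 in Cl19 and -2.30 and -1.60 in 3c3. *E2f7* was also called lower in both and was not well above background on any array of d6. *E2f1* changed by -0.38 and -0.37, and neither passed (adjusted p = 0.137 and 0.154). *Rb1* rose by 1.04 in Cl19 (adjusted p = 0.000112) and differed by 0.39 in 3c3 (adjusted p = 0.0962). *Rbl2*, which encodes p130, changed by -0.60 in Cl19 (adjusted p = 0.00699) and by 0.55 in 3c3 (adjusted p = 0.0134). Of 9 tested genes that govern the stability of the inhibitors and cyclins, Cl19 had 6 lower and 1 higher, and 3c3 had 3 lower and 1 higher. Of all tested probes, 30.3% were lower and 22.0% higher in Cl19, and 28.6% and 19.7% in 3c3, so that the 3c3 count of lower genes lies near its share. The medians of this list were -0.73 and -0.35, beside the same -0.20 and -0.21. *Skp2*, which targets p27 for degradation, changed by -2.71 and -2.43, *Dtl*, which targets p21, by -2.60 and -1.79 with 2 of 3 arrays of d6 measured in each line, and *Skp1* by -0.73 and -0.61. *Gsk3b*, whose kinase marks cyclin D1 for degradation, rose by 0.52 and 0.40.

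Of 21 tested transcriptional regulators of these genes, Cl19 had 6 higher and 6 lower, and 3c3 had 6 higher and 5 lower. These shares lie near those of all tested probes, 22.0% and 30.3% in Cl19 and 19.7% and 28.6% in 3c3. Their medians were 0.12 and -0.04. *Cbx7*, a Polycomb protein known as a repressor of the *Cdkn2a* locus, rose by 5.07 in Cl19 (adjusted p = 6.37e-09) and by 3.01 in 3c3 (adjusted p = 7.39e-06). *Mycl* rose by 4.29 and 2.28 and *Klf6* by 2.04 and 1.82. *Mycn* fell, with changes of -1.71 and -1.63. *Myc*, a repressor of *Cdkn2b* and *Cdkn1a*, fell in Cl19 with a change of -1.31 (adjusted p = 0.00275) and changed by -0.04 in 3c3 (adjusted p = 0.931).

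**Figure D5:**
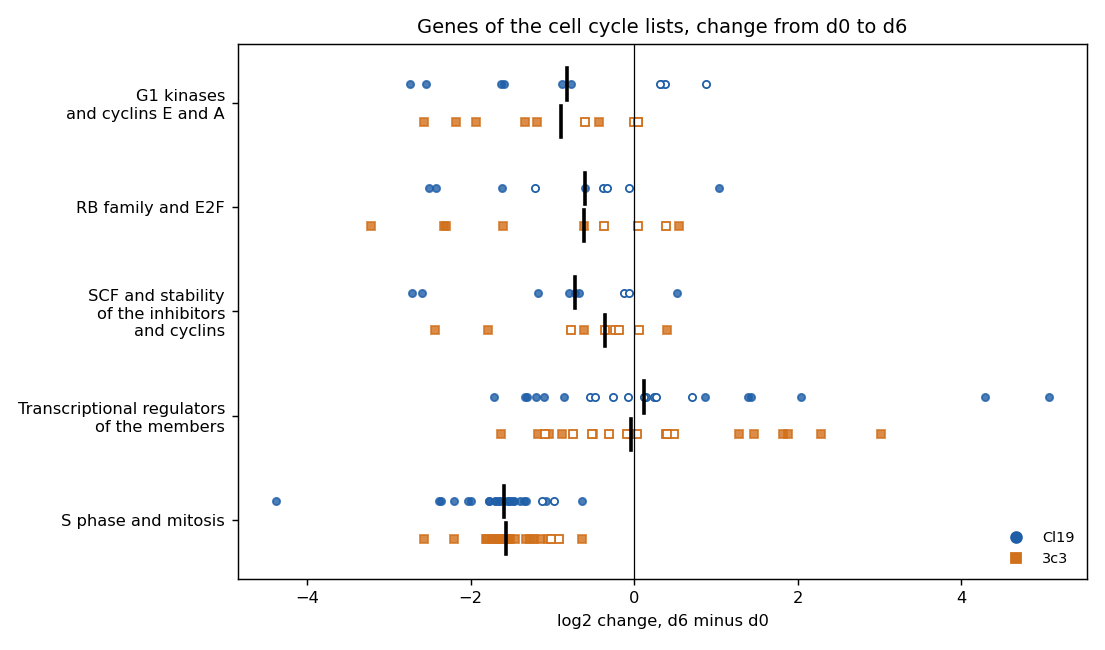
Change from d0 to d6 (x axis, log2 units) of the tested genes of 5 lists (y axis) in Cl19 (circles, upper row of each list) and 3c3 (squares, lower row); filled symbols have an adjusted p below 0.05, and black bars are list medians. The genes of S phase and mitosis lie below 0 in both lines, with medians of -1.60 and -1.57.

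The probes most like *Cdkn2b* in their pattern over the 8 rMAPC group means were those of *Krt7*, *Lurap1l*, *Foxj1*, *Filip1l* and *Mgat5b*, with Pearson correlations of 0.998, 0.998, 0.996, 0.995 and 0.995. *Krt7*, a keratin gene, rose by 10.93 in Cl19 and 7.99 in 3c3, and *Foxj1*, a gene of ciliated cells, by 8.82 and 6.43. *Cdkn2c* had the largest mean fall among the genes measured on every d0 array. The probes most like it were those of *Tmem138*, *Ccdc134*, *Upp1*, *Glce* and *Ssr1*, with correlations of 0.992, 0.988, 0.982, 0.977 and 0.975. *Upp1*, the gene of uridine phosphorylase, fell furthest of these 5, with changes of -7.28 and -4.10. These correlations describe 8 means from the same arrays and were picked as the highest of all tested probes.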

How the data were processed

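RNA from Cl19 and 3c3 on d0, d2, d4 and d6 (3 arrays each) and from primary SMCs (2 arrays) was labeled with Cy3 and hybridized singly to Agilent rat arrays. The authors deposited scanner intensities, background-corrected by Agilent Feature Extraction 10.1.1.1 (version from the submitters' processing notes), and a table of log2 values that equals the log2 of these intensities to within 5.15e-14. No unused sample columns were found.

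From the intensities, log2 values of 43379 gene features were quantile-normalized over 26 arrays, outlier features were left out, and features of a probe were averaged. For a probe with repeated features, a share of 0.5 of them had to carry the flag. Quantile normalization removes a change shared by most genes. Groups came from the labels. The 24442 probes measured on all arrays of some group entered a single limma (3.58.1, R 4.3.3) model of the 9 groups, with p-values adjusted by Benjamini-Hochberg and called below 0.05. Intervals are 95%. The number of arrays limits the precision. The fit was tested on simulated data. Python 3.11.15 made tables and figures.

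Arrays of a replicate shared a slide according to the scanner files. Their deviations from group means were correlated by over 0.1 in 16 of 18 pairs in Cl19 (lowest 0.0616) and 18 of 18 in 3c3 (lowest 0.204), and the slide as a block was an alternative. The others were 75th percentile scaling, normexp with an offset of 50, the authors' table, no dim filter, a floor, slide as a random block, a fit per line, the mean of a gene's probes, a variance trend, each array left out, and, chosen after seeing the data, no slide with the higher background.

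The genes, the lists and their named genes were chosen with earlier results of these data known, and *Cdkn2b* is on the study's list of changed probes, chosen on the same arrays. Named list genes are up to 4 per list with the largest mean change among those called in both lines, and *Myc*, *Rb1*, *Cdk4*, *Cdk6*, *Cdk2*, *Ccne1*, *Ccne2*, *E2f1* and *Skp2*. Some genes and 1 list that this rule covers are not reported here. Genes most like a pattern are the 5 with the highest correlation.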

Additional observations from a re-analysis of the deposited data

Results flagged for a closer look

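The change from d0 to d6 differed between the lines, by limma's test of the difference itself, for 2 of the 10 genes. For *Ccnd1* the change in Cl19 minus that in 3c3 was -4.48 (adjusted p = 3.4e-06), with a change of -3.61 in Cl19 and of 0.87 in 3c3. For *Cdkn2c* it was -1.67 (adjusted p = 0.0212), with a change of -3.10 in Cl19 and of -1.43 in 3c3, where the probe was measured on 2 of 3 arrays of d6, so that the 3c3 change may be larger. That call was lost in 4 alternatives (adjusted p = 0.056 to 0.102). Of all tested probes, 17.4% differed in this way.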

How the results depend on the processing

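The rise of *Cdkn2b*, *Cdkn2a* and *Cdkn1a* and the fall of *Cdkn2c* on d6 kept their direction and stayed past the threshold in both lines under all 37 alternatives run for each, as did the fall of *Ccnd1* in Cl19. The number of genes changed over time or on d6, and of those that differed from primary SMCs, stayed within 1.5 times in each line. The number changed over time in 3c3 was 6 in place of 9 without the slide with the higher background. The number of called steps in Cl19 was 9 in place of 14 in a fit of Cl19 alone. In 3c3 it was 5 in place of 8 with no filter on dim probes or with the mean of a gene's probes, 1 without the slide with the higher background, and 2 to 12 when arrays were left out singly. The number of genes whose d6 change differed between the lines was 4 in place of 2 with the normexp correction, the replicate block or the slide as a random block. It was 1 without the slide with the higher background, and 1 to 4 when arrays were left out singly. The number that differed on d0 was 1 in place of 2 without that slide and 1 to 3 when arrays were left out. With the replicate block, which pairs arrays of a slide, the changes themselves stayed equal; the calls it changed are given above. The change of *Ccnd3* in Cl19 turned from -0.17 to 0.17 in the authors' table and to 0.22 without replicate 3 of d6, in a range of -0.45 to 0.22 over arrays left out. Against primary SMCs, *Cdkn1a* turned to -0.15 in Cl19 with 75th percentile scaling and to 1.19 in 3c3 with the authors' table, and *Ccnd3* to 0.71 in Cl19 and 1.05 in 3c3 with that table. In the authors' table, the median d6 change of all tested probes was 0.10 in Cl19 and 0.09 in 3c3 in place of -0.20 and -0.21, and the split of calls was 6771 higher and 5396 lower in Cl19, in place of 5371 and 7394, and 6167 and 4758 in 3c3, in place of 4803 and 6989. The cause of these differences was not tested. Signal near background limits *Ccnd2* and *Cdkn2c*.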
